A study of Homo sapiens with 6 samples.

Results

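Tissue-type alternative splicing regulators are the RNA-binding proteins that let one gene give different mRNAs in different tissues, and 10 of them were followed here. The genes were *PTBP1*, *PTBP2*, *RBFOX2*, *MBNL1*, *MBNL2*, *CELF1*, *ESRP1*, *ESRP2*, *QKI* and *KHDRBS1*, chosen by name from a table of 57150 genes. Each name matched 1 row, and 9 of the 10 passed a filter of at least 1 in mean FPKM. FPKM gives fragments per transcript length, scaled for depth by the authors' software and not by the totals of the estimated counts given below. By the labels the RNA came from K562, a human leukemia line used as a model of erythroid gene expression, harvested 72 h after transfection. A group of 3 pools received siRNAs that each target both αCP1 and αCP2, the C-rich binding proteins encoded by *PCBP1* and *PCBP2* (label KD). The other 3 pools received control siRNAs (label CTRL). By the study's account, some of these control siRNAs are directed at GLD-2, an mRNA unrelated to the αCPs, and some are non-targeting. The question set by the design was how loss of αCP1/2 alters splicing. The levels of other splicing regulators in the same cells are part of that setting.

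As background, such regulators bind short sequence elements in or beside an exon and either help or hinder the spliceosome at that exon. PTBP1 binds U- and C-rich pyrimidine stretches and mostly represses exons in cells that are not neurons, and PTBP2 is its paralog in developing neurons. RBFOX proteins bind UGCAUG, MBNL proteins bind YGCY elements and drive the change from fetal to adult splicing patterns, and CELF1 opposes MBNL at many of these exons. ESRP1 and ESRP2 maintain epithelial isoforms. QKI binds ACUAAY elements and is known from glia, muscle and mesenchymal cells, and KHDRBS1 (Sam68) is a broadly expressed KH-domain protein that binds UAAA-type elements. The αCPs are also KH-domain proteins, and they share the polypyrimidine tract before the splice acceptor with PTBP1 and U2AF65 as a place of binding.

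The table holds 1 FPKM value and 1 estimated count per gene and group, so there is no spread between libraries and no test of any difference below. In such bulk RNA, fewer cells of a type and less RNA per cell cannot be told apart. The totals of the estimated counts were 13699340 for KD and 11680567 for CTRL. By the study's mapping statistics, every single library had more mapped pairs than either total. How the estimated counts relate to sequenced fragments is not given, so the counting intervals below treat these estimates as if they were fragments counted. The siRNA targets do not match the label: *PCBP1* had an FPKM of 184.1 in KD and 187.8 in CTRL, and *PCBP2* had 530.8 and 342.4. *U2AF2*, which encodes U2AF65 and was not a labelled target, was at 13.0 and 85.3, from 351 and 2393 counts, a log2 ratio of -2.63. The study also depleted U2AF65 in K562 by siRNA, in experiments read by RT-PCR. Of 13 erythroid markers, 10 were below the filter and 7 were at 0 in both columns, among them *GATA1*, *TAL1* and *KLF1*. Of 12 epithelial markers, 7 passed the filter and 6 had an FPKM over 5 in both columns. The summed FPKM of the erythroid list, 161.6 in KD and 43.4 in CTRL, was mostly the embryonic globin gene *HBE1*, at 152.9 and 35.4, and *EPOR*, the erythropoietin receptor, was at 3.55 and 5.08. The epithelial list summed to 4506 and 3298. Among 10 mesenchymal markers 7 passed the filter, with sums of 723.8 and 577.6, of which *VIM* made up 687.5 and 545.3. Of 8 neuronal markers 0 passed, and of 7 muscle markers 1 passed. The siRNA targets and the erythroid markers thus go against the labels, and the targets also go against the depletion that the study reports. The table does not show which cells or which treatment its columns hold, so KD and CTRL are used below only as column names. The part of these cell markers in the values below was not tested.

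The strongest expressed of the regulators was *PTBP1*, and the one whose level differed most between the columns was *MBNL1*. On the FPKM scale, which is per length and so compares genes, the order from high to low gave the same rank in both columns to 8 of the 10 genes, with *PTBP1*, *KHDRBS1* and *CELF1* at the top and *MBNL2*, *PTBP2*, *QKI* and *ESRP1* at the bottom. *RBFOX2* ranked 4 in KD and 6 in CTRL, and *MBNL1* ranked 6 in KD and 4 in CTRL. With 1 value per group, whether neighbours in this order differ beyond a spread could not be assessed. Among the 13741 genes past the filter, the 9 expressed regulators lay between percentile 45.0 of FPKM (*QKI* in KD) and percentile 94.5 (*PTBP1* in KD).

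**Figure D1:**
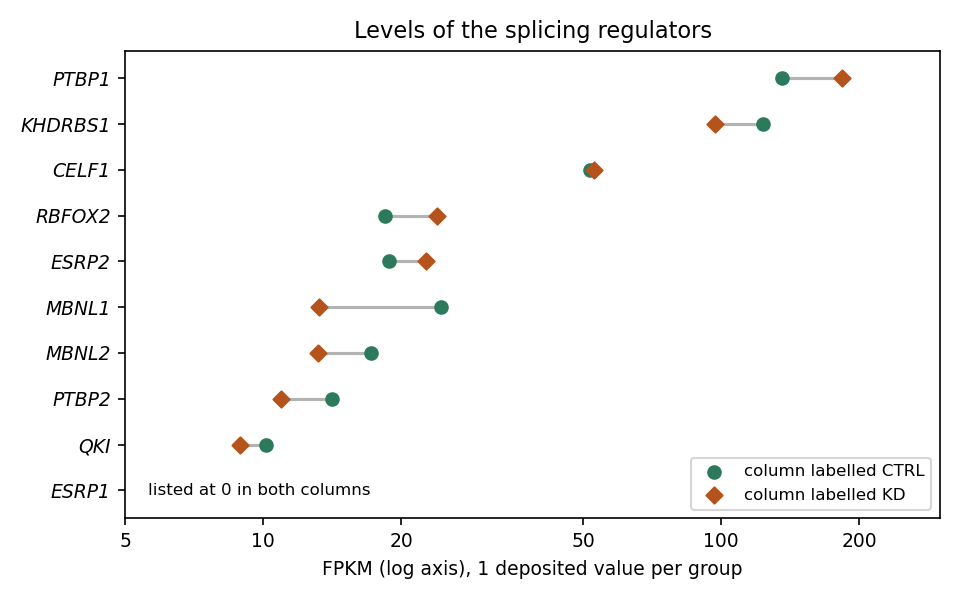
FPKM of the 10 regulators in the KD column (diamonds) and the CTRL column (circles) on a log axis, 1 deposited value per group. *PTBP1* is highest in both columns, *ESRP1* is listed at 0 in both, and the widest gap is that of *MBNL1*, from 24.4 in CTRL to 13.2 in KD.

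Differences between the columns are given as log2 of (FPKM + 1) in KD over that in CTRL, which understates differences of genes with low values. Of the 9 expressed regulators, 0 reached a log2 ratio of 1, against 8.51% of all genes past the filter, and 0 reached -1, against 3.27% of all genes. Ratios were above 0 for 4 regulators, against 51.1% of all genes, and below 0 for 5, against 48.9%. The median was -0.17, beside 0.01 for all genes. A further measure was the log2 ratio of the share that each gene took of its column's total count, given with its 95% exact binomial interval, which covers counting error only. On the log2(CPM + 1) scale, where CPM is the count scaled to a common column total, the median of all genes was -0.18 and that of the regulators was -0.44. Count shares use the same column totals, so 0 is not the middle of all genes for them either. On that scale too, 0 of the 9 reached 1, against 4.66% of all genes, and 0 reached -1, against 5.84%.

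**Figure D2:**
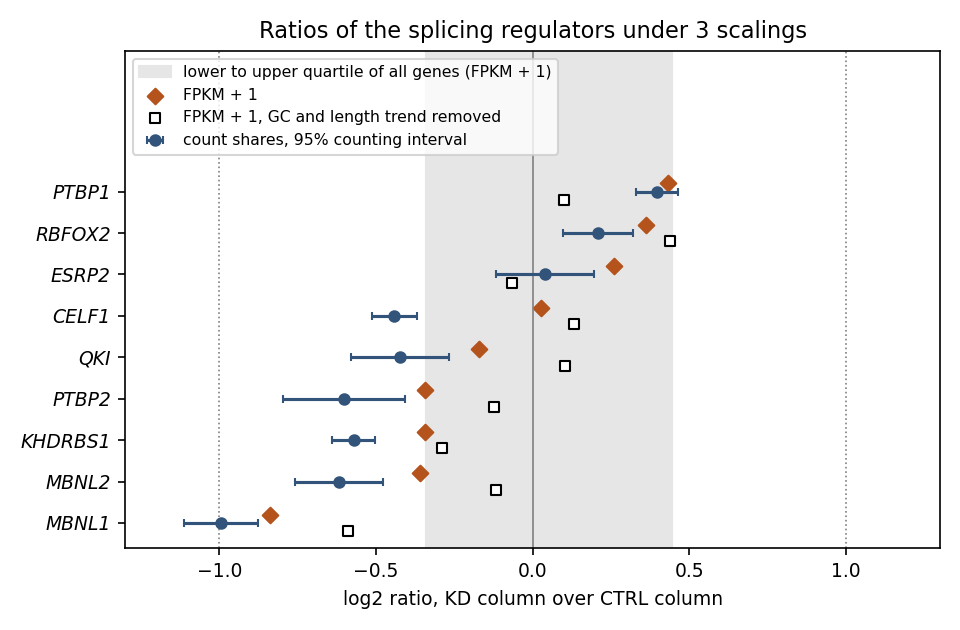
Log2 ratio of KD over CTRL for the 9 expressed regulators by FPKM + 1 (diamonds), by count shares with 95% counting intervals (circles) and by FPKM + 1 corrected for GC content and length (squares), over the range from the lower to the upper quartile of all genes (grey, -0.34 to 0.45). *MBNL1* is lowest under each measure, and *CELF1*, *QKI* and *ESRP2* lie on different sides of 0 under different measures.

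The polypyrimidine tract-binding genes differed between the columns in opposite directions. *PTBP1* (ENSG00000011304; GRCh37 chromosome 19, 797075 to 812327, plus strand) had an FPKM of 183.1 in KD and 135.5 in CTRL, from 4547 and 2942 estimated counts. This is a log2 ratio of 0.43, at percentile 74.4 of all genes. The ratio of count shares was 0.40 (0.33 to 0.47). *PTBP1* was thus higher in the KD column by both measures, with a counting interval above 0, and within the range of the bulk of genes.

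*PTBP2* (ENSG00000117569; chromosome 1, 97187221 to 97289294, plus strand), the neuronal paralog, had an FPKM of 10.9 in KD and 14.1 in CTRL, from 389 and 503 counts. The log2 ratio was -0.34, and that of count shares was -0.60 (-0.80 to -0.41). *PTBP1* mRNA therefore stood at 16.7 times the level of *PTBP2* in KD and at 9.58 times in CTRL. *PTBP3*, the paralog known from hematopoietic cells, had an FPKM of 12.6 in KD and 21.6 in CTRL, a log2 ratio of -0.73. The summed FPKM of the family was 206.7 in KD and 171.2 in CTRL, and *PTBP1* held 88.6% of it in KD and 79.1% in CTRL. These level ratios and shares are not corrected for GC content, with which the ratios of all genes went (below). It was 57.7% for the *PTBP1* transcript, 37.2% for *PTBP2* and 36.4% for *PTBP3*.

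PTBP1 protein is known to repress an exon of its own transcript and the matching exon of *PTBP2*, and in each case skipping shifts the reading frame. Both exons are 34 nt long in the annotation, exon 11 of *PTBP1* and exon 10 of *PTBP2*, and skipping is annotated in 2 *PTBP1* and 6 *PTBP2* transcripts. The 30 nt before these exons are shown because PTBP1, U2AF65 and the αCPs all bind pyrimidines at such acceptors. Exon 9 of *PTBP1*, a 78 nt cassette that changes the linker between RNA-binding domains, and exon 3 of *PTBP2* are shown beside them for contrast. Sequences are on the transcribed gene's strand, 5′ to 3′, with T for U, from GRCh37, and capitals mark C.

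PTBP1 exon 11 acceptor (chr19:807839-807868, plus strand): CtCCgCtgCCttgCtCtgCtgtCtCtaaag
PTBP2 exon 10 acceptor (chr1:97271945-97271974, plus strand): taCgCtgCttgCtCttCtCtCCttCtaaag
PTBP1 exon 9 acceptor (chr19:805462-805491, plus strand): tgCgatgattagtgtCtCatttatttCtag
PTBP2 exon 3 acceptor (chr1:97216951-97216980, plus strand): tCttatgCtaatttgtttttgttttCatag

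C made up 36.7% of the window before *PTBP1* exon 11 and 33.3% of that before *PTBP2* exon 10, at percentiles 78.9 and 72.9 of 11157 cassette exons in expressed protein-coding genes. The windows before *PTBP1* exon 9 and *PTBP2* exon 3 held 13.3% and 10% C. U made up 46.7% and 60.0% of them. The remaining cassette exon of *PTBP1*, exon 2, had 30% C before it, at percentile 66.5. The C-rich consensus of the study, searched as an exact pattern in these 30 nt on the transcript strand, had no match in any of these windows. Of the 11157 windows, 5.86% had a match. Over all 23 cassette exons of the 10 regulators, 1 window held it, that of *ESRP1* exon 14. The study instead used motif discovery in wider windows on both sides of exons. A lack of match here does not show that its search would find none. Inclusion of these exons was not measured in the table.

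**Figure D3:**
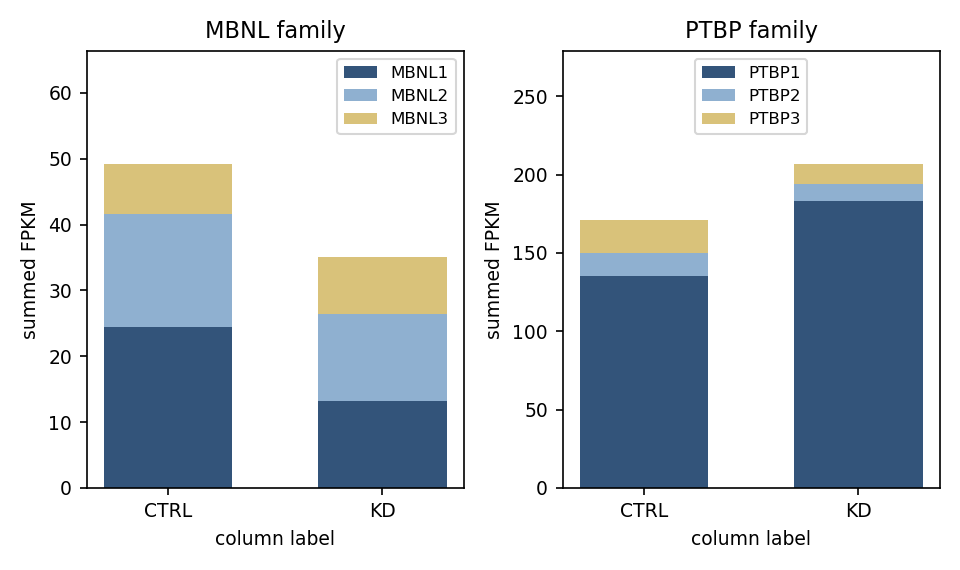
Summed FPKM of the MBNL and PTBP families in the columns labelled CTRL and KD, stacked by gene, 1 deposited value per group. The MBNL sum is 49.2 in CTRL and 35.03 in KD with the gap mainly in *MBNL1*, and the PTBP sum is 171.2 in CTRL and 206.7 in KD with the gain in *PTBP1*.

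Both muscleblind-like genes among the regulators were lower in the KD column, *MBNL1* more than *MBNL2*. *MBNL1* (ENSG00000152601; chromosome 3, 151961617 to 152183569, plus strand) had an FPKM of 13.2 in KD and 24.4 in CTRL, from 933 and 1584 counts. The log2 ratio was -0.84, at percentile 5.42 of all genes, and that of count shares was -0.99 (-1.11 to -0.88). In the KD column its level was 0.559 times that in CTRL on the (FPKM + 1) scale. Of the 50 nt words of its reference transcript, 1.77% also occur on the opposite strand in *MBNL1-AS1*, and the library kit is not described as keeping strand.

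*MBNL2* (ENSG00000139793; chromosome 13, 97873688 to 98046374, plus strand) had an FPKM of 13.2 in KD and 17.2 in CTRL, from 722 and 945 counts. Its log2 ratio was -0.36, and that of count shares was -0.62 (-0.76 to -0.48). *MBNL1* was at 1.42 times the level of *MBNL2* in CTRL, while in KD the 2 FPKM values were 13.22 and 13.20. *MBNL3*, the third muscleblind gene and an antagonist of muscle differentiation, was at 8.61 in KD and 7.54 in CTRL, a log2 ratio of 0.17. The family sum was 35.03 in KD and 49.2 in CTRL. Of this sum, *MBNL1* held 37.7% in KD and 49.7% in CTRL, while *MBNL3* held 24.6% and 15.3%.

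*CELF1*, the antagonist of MBNL proteins at many developmental exons, had nearly the same FPKM in both columns. It lies on chromosome 11, 47487485 to 47587121, minus strand (ENSG00000149187), and had an FPKM of 52.7 in KD and 51.8 in CTRL, from 2953 and 3419 counts. The log2 ratio was 0.03 by FPKM, and that of count shares was -0.44 (-0.51 to -0.37), so its direction depended on the scale. The gene overlaps *NDUFS3* and *PTPMT1* in the annotation, and 9 rows, its own included, carry the same locus. Of the 50 nt words of its reference transcript, 0 occur in transcripts of other genes. *CELF1* was at 95.4% of the CELF family sum in KD and 97.9% in CTRL. The next paralog, *CELF2*, had an FPKM of 2.12 in KD and 0.667 in CTRL, from 211 and 58 counts. Its log2 ratio was 0.91 by FPKM + 1 and 1.63 (1.21 to 2.08) by count shares. *CELF3*, *CELF4*, *CELF5* and *CELF6* were all below the filter.

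The 3 acceptors below are shown because they are the windows among 23 cassette exons of the 10 regulators that hold UGCAUG, the element bound by RBFOX proteins, here in capitals and written with T for U. *MBNL1* exon 7 and *MBNL2* exon 8 are both 36 nt long and are matching exons of paralogs, so they are not independent.

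MBNL1 exon 7 acceptor (chr3:152173301-152173330, plus strand): caccttcctgttgcaaTGCATGatgggcag
MBNL2 exon 8 acceptor (chr13:98017360-98017389, plus strand): ctttttccacccaccatTGCATGacatcag
CELF1 exon 8 acceptor (chr11:47505085-47505114, minus strand): TGCATGagttactgactcttctcttaccag

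The element TGCATG, searched on the transcript strand, was present in 13.0% of the regulators' 23 windows, beside 0.609% of the 11157 windows of expressed genes, which is 68 windows. TCTT, a word bound by PTBP1, was present in 26.1% of the 23 windows and 41.7% of the 11157. The QKI element, ACTAAC or ACTAAT, was present in 1 window, that of *ESRP2* exon 8, against 1.24% of all windows. A match in letters is a description and shows no binding. Over the 23 windows the median content was 20% C and 46.7% U, beside 23.3% and 40.0% for the 11157.

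**Figure D4:**
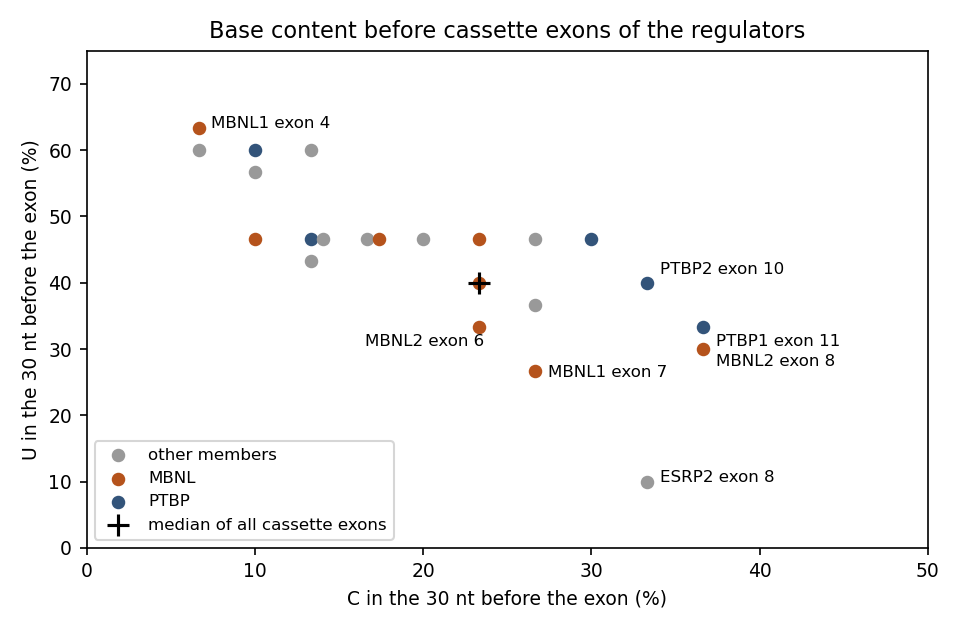
C against U content (percent) of the 30 nt before each of the 23 annotated coding cassette exons of the 10 regulators, with points of equal content set side by side and the median of 11157 cassette exons in expressed genes as a cross. The matching exons of *PTBP1* and *PTBP2* and *MBNL2* exon 8 lie at the C-rich end, and *ESRP2* exon 8 has 10% U.

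*RBFOX2*, the broadly expressed member of the RBFOX family, was higher in the KD column. It lies on chromosome 22, 36134783 to 36424872, minus strand (ENSG00000100320). Its FPKM was 24.0 in KD and 18.4 in CTRL, from 1530 and 1129 counts. The log2 ratio was 0.36, and that of count shares was 0.21 (0.10 to 0.32). The neuronal and muscle paralog *RBFOX1* had 0 counts in KD and 1 in CTRL, and the neuronal *RBFOX3* had 1 and 4. *RBFOX2* therefore made up 99.5% of the family's FPKM in KD and 98.2% in CTRL.

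An acceptor of *RBFOX2* stood at the U-rich end of the range. The window before its 40 nt exon 11 is shown as that with the lowest C content outside the MBNL genes, beside that of *ESRP2* exon 8, which had the lowest pyrimidine content of the 23, at 43.3%. Capitals mark C.

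RBFOX2 exon 11 acceptor (chr22:36152192-36152221, minus strand): tgtttttgtttttgtgtggattttCtgCag
ESRP2 exon 8 acceptor (chr16:68266407-68266436, minus strand): CaggaggCaCtaaCagCaCtggCtCCaCag

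The *RBFOX2* window held 6.67% C and 60.0% U, at percentiles 5.84 and 94.9 of the windows in expressed genes. The *ESRP2* window held 33.3% C and 10% U, with U at percentile 0.735.

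The epithelial regulators were split between a silent and an expressed gene. *ESRP1* (ENSG00000104413; chromosome 8, 95653302 to 95719694, plus strand) had 0 counts and an FPKM of 0 in both columns, which allows up to 0.219 CPM in KD and 0.257 in CTRL (3 counts of each total). No ratio is given for it. *ESRP2* (ENSG00000103067; chromosome 16, 68262936 to 68272005, minus strand) had an FPKM of 22.7 in KD and 18.8 in CTRL, from 751 and 623 counts. It held the whole of the ESRP sum in both columns. Its log2 ratio was 0.26 by FPKM, and that of count shares was 0.04 (-0.12 to 0.20). This interval includes 0 and lies above the median of all genes on the log2(CPM + 1) scale, -0.18. Of its transcript's 50 nt words, 5.27% also occur in transcripts of *NFATC3* on the opposite strand, and 1.89% occur on the same strand in the transcript of ENSG00000262160. The words shared with ENSG00000262160 are among those shared with *NFATC3*. Reads from the words shared with *NFATC3* cannot be told apart without strand, and those also shared with ENSG00000262160 not even with strand. Epithelial markers were likewise mixed, with *KRT8* at 1505 and 818.7, *KRT18* at 2309 and 1748 and *CLDN7* at 79.5 and 40.6 in KD and CTRL. Other expressed markers had lower FPKM in KD, with *KRT7* at 539.5 and 604.3, a difference that was 0.06 upward on the log2(CPM + 1) scale, *CLDN4* at 11.1 and 15.0 and *ELF3*, an epithelial transcription factor, at 56.9 and 68.2. Silent markers included *GRHL2* and *OVOL1*, also transcription factors of epithelia, with *GRHL2* at 0.0312 and 0.0156 and *OVOL1* at 0. *CDH1*, the epithelial cadherin, was at 0.363 and 0.426.

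The STAR-domain proteins QKI and KHDRBS1 were both lower in the KD column by FPKM. *QKI* (ENSG00000112531; chromosome 6, 163835032 to 163999624, plus strand) had an FPKM of 8.91 in KD and 10.1 in CTRL, from 631 and 721 counts. The log2 ratio was -0.17, and that of count shares was -0.42 (-0.58 to -0.27). *KHDRBS1* (ENSG00000121774; chromosome 1, 32479469 to 32526451, plus strand) had an FPKM of 96.8 in KD and 123.1 in CTRL, from 3128 and 3962 counts. The log2 ratio was -0.34, and that of count shares was -0.57 (-0.64 to -0.50). Its brain-enriched paralogs were nearly silent, with *KHDRBS2* at 0 counts in both columns and *KHDRBS3* at 5 in KD and 14 in CTRL. *KHDRBS1* made up 99.3% of the family's FPKM in KD and 98.9% in CTRL.

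The direction of the regulators went with the GC content of their transcripts, as it did for genes in general. Spearman's rho between GC content and the log2 ratio was 0.46 over 13120 genes, which share the same libraries and are not independent. The 4 regulators under 39% GC, *PTBP2*, *MBNL1*, *MBNL2* and *QKI*, were all lower in KD, and the 2 over 57% GC, *PTBP1* and *ESRP2*, were both higher. Most genes of like GC content went the same way. In the GC bin (defined below) of *PTBP2* and *MBNL1*, the upper quartile of all genes was -0.0085. It was -0.022 in the bin of *MBNL2* and 0.073 in that of *QKI*. The lower quartile was -0.037 in the bin of *PTBP1* and *ESRP2*. Over the 9 expressed regulators rho was 0.87, a description of 9 genes in the same pair of columns.

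Each regulator was therefore set among the 656 genes of its own GC bin, with 20 bins of rising GC. *MBNL1* was at percentile 8.77 of its bin, whose median was -0.29. *RBFOX2* was at percentile 76.1 of its bin, with a median of -0.0019, and *KHDRBS1* at 28.1, with a median of -0.05. The other 6 lay between percentiles 43.8 and 59.4, so *PTBP1*, at 59.4, and *PTBP2*, at 43.98, were both near the middle of genes of their own base composition. The ratios of all genes were also corrected for GC and length by a quadratic fit. The log2 ratio was then 0.10 for *PTBP1*, -0.12 for *PTBP2*, -0.12 for *MBNL2* and -0.59 for *MBNL1*. *ESRP2* and *QKI* changed sign, to -0.07 and 0.10. *RBFOX2* went from 0.36 to 0.44, *CELF1* from 0.03 to 0.13 and *KHDRBS1* from -0.34 to -0.29. After this correction 0 of the 9 reached 1, against 4.4% of genes, and 0 reached -1, against 3.79%. The part of GC content in these differences was otherwise not tested.

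**Figure D5:**
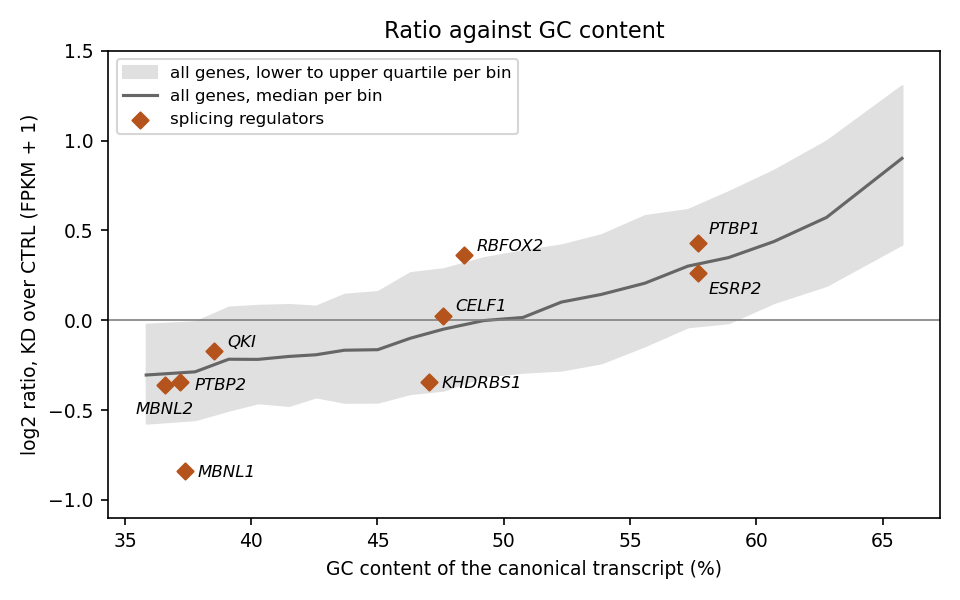
Log2 ratio of KD over CTRL (FPKM + 1) against GC content of the reference transcript (percent) for the 9 expressed regulators, with the median (line) and the range from the lower to the upper quartile (grey) of all genes in 20 GC bins. The regulators lie along the line, with *MBNL1*, at -0.84, below the grey range and *RBFOX2*, at 0.36, at its upper edge.

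Of 16 other tissue-type splicing regulators, 8 passed the filter, of which 1 reached a log2 ratio of 1, against 8.51% of all genes, and 0 reached -1, against 3.27%. That gene was *RBM38*, an RNA-binding protein of erythroid and muscle differentiation, at an FPKM of 16.1 in KD and 7.19 in CTRL, a log2 ratio of 1.07. It was at 0.94 on the log2(CPM + 1) scale and at 0.42 after the correction for GC and length. The stress-granule proteins and U-rich binders *TIA1*, at 13.8 in KD and 19.3 in CTRL, and *TIAL1*, at 38.5 and 47.9, had log2 ratios of -0.46 and -0.31 by FPKM and of -1.02 and -0.62 by CPM, so that by CPM *TIA1* passed the threshold and *RBM38* did not. *RBM24*, a regulator of muscle exons, was at 8.07 and 13.3, and the epithelial regulator *RBM47* was at 1.04 and 1.96. *RBPMS*, a smooth-muscle splicing regulator, was at 69.4 and 69.1, a log2 ratio of 0.01. The neuronal regulators *NOVA1*, *ELAVL2*, *ELAVL3* and *ELAVL4* had 0 counts in both columns. Of the 11 paralogs of the regulators, 4 passed the filter. Ratios were above 0 for 2 (*MBNL3* and *CELF2*), against 51.1% of all genes, and below 0 for 2 (*PTBP3* and *KHDRBS3*), against 48.9%. By FPKM 0 reached 1, against 8.51%, and 0 reached -1, against 3.27%. On the log2(CPM + 1) scale *CELF2* was at 1.46, where 4.66% of all genes reached 1. *PTBP3* was at -1.02, where 5.84% reached -1. After the correction for GC and length *CELF2* was at 1.14, where 4.4% of genes reached 1, and *PTBP3* was at -0.46.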

How the data were processed

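The authors mapped 100 nt paired-end reads from TruSeq libraries with TopHat 1.4.1 to hg19 and calculated FPKM with Cuffdiff 2.2.0. The deposited table gives 1 FPKM value and 1 estimated count per gene for each group of 3 libraries, and how the libraries were combined is not given in the sources used here. The authors' own fold changes, p-values and FDR, and their columns of average, maximum and minimum FPKM, were not used. The columns of other samples numbered 0.

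Ratios were computed as log2(FPKM + 1) for KD minus CTRL, where the mean FPKM of a gene was 1 or more. The planned linear model across libraries needs replicate values, which the table does not separate, so no p-value is given. Counting intervals are 95% exact binomial, on estimated counts rounded to whole numbers and treated as fragments counted, and cover counting error only. GC content and length are those of the Ensembl canonical transcript (the reference transcript in the text) in GENCODE release 44 on GRCh37, matched by gene ID for 95.5% of the genes past the filter. The table's loci overlapped the GRCh37 genes for 54483 of 54488 shared IDs. A cassette exon is an internal coding exon of that transcript that another annotated transcript skips between the same flanking exons, and exon numbers count along that transcript. Functions were tested on simulated data.

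The genes named are the 10 regulators, their paralogs, other tissue-type regulators, reference genes and cell markers. One listed erythroid marker is not reported here. The members and lists were chosen with earlier results of these data known. Alternatives were a pseudocount of 0.1, CPM (counts scaled to a common column total), centring on the median, a quadratic correction for GC and log2 length, no filter, an FPKM over 5 in a column, and estimated counts for family shares. Analyses used scipy 1.17.1, pandas 2.3.3, numpy 2.4.6 and matplotlib 3.10.9 under Python 3.11.15.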

Additional observations from a re-analysis of the deposited data

How the results depend on the processing

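No paired analysis was possible because libraries are not separated in the deposited values, and for the same reason no fit without single libraries was run. Summing rows of equal symbols was not run, as each symbol had 1 row. A single gene was taken to have moved when it shifted by more than its counting interval, a count of genes when it shifted by more than 1.5 times. CPM divides counts by the column totals, which the deposited FPKM did not follow, and this offset is shared by all genes. The median of all genes was 0.01 by FPKM and -0.18 by CPM. Causes of the shifts were otherwise not tested. A pseudocount of 0.1 and centring on the median moved 0 of the 9 regulators, and 0 of 9 reached a log2 ratio of 1 in either direction under any setting. With CPM, 8 moved: *PTBP2* to -0.58, *RBFOX2* to 0.21, *MBNL1* to -0.98, *MBNL2* to -0.61, *CELF1* to -0.44, *ESRP2* to 0.039, *QKI* to -0.41 and *KHDRBS1* to -0.57, with the median of the regulators at -0.44. With the correction for GC and length, 7 moved: *PTBP1* to 0.10, *PTBP2* to -0.12, *MBNL1* to -0.59, *MBNL2* to -0.12, *CELF1* to 0.13, *ESRP2* to -0.067 and *QKI* to 0.10. Without *ESRP2*, a setting chosen after seeing the data, the median was -0.26. Genes at 1 or more numbered 1169, and 641 with CPM and 577 with that correction. Genes at -1 or less numbered 450, and 791 with a pseudocount of 0.1, 803 with CPM and 292 with an FPKM over 5 in a column. The filter at an FPKM over 5 keeps fewer genes, and the correction covers 13120 of 13741. These are therefore numbers of genes and not shares of the same set. By estimated counts, which are not per length, the family shares in KD and CTRL were 75.4% and 55.1% for *PTBP1*, 34.5% and 47.1% for *MBNL1*, 99.9% and 99.6% for *RBFOX2*, 92.9% (KD) for *CELF1* and 99.8% and 99.6% for *KHDRBS1*. Depth limits *ESRP1* and the silent paralogs, where no fold was given at 3 or fewer counts in both columns.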

Other observations

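The number of estimated counts behind each unit of FPKM grows with the transcript length that the estimate assigns to a gene. Over 12718 genes past the filter with at least 10 counts in each column, this number was the same in both columns at the median, with a log2 ratio of 0.00, although the column totals differed. The deposited FPKM were thus not scaled to these totals. The central values, from the 5th to the 95th percentile, ran from -0.36 to 0.35. For 5 of the 9 expressed regulators the columns had nearly equal values. *PTBP2* had 35.5 counts per FPKM in KD and 35.6 in CTRL, *MBNL2* had 54.7 and 54.9, *ESRP2* had 33.1 and 33.2, *QKI* had 70.9 and 71.1, and *KHDRBS1* had 32.3 and 32.2.

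The other 4 regulators differed more. *PTBP1* had 24.8 counts per FPKM in KD and 21.7 in CTRL, at percentile 88.5 of the log2 difference over all genes. *MBNL1* had 70.6 and 64.8, at percentile 83.1, and *RBFOX2* had 63.9 and 61.3, a smaller difference at percentile 74.8. *CELF1* went the other way, with 56.0 and 66.1, at percentile 8.71, and its FPKM and its count differ in direction. All 4 lay inside the 5th to 95th percentile range. Whether they use different transcripts in the columns was not tested, since the table holds no value per transcript.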
